A study of Drosophila melanogaster with 3 samples.

Results

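Mediator and the general transcription machinery were examined as possible targets of CG1602-GFP in Drosophila melanogaster embryos. The set held 67 of the 17947 annotated genes, all protein-coding and chosen by symbol: MED plus a digit, Taf plus a digit, Polr2, TfII without TfIII, and Ssl1, kto, skd, CycC and Cdk8. It comprised 29 Mediator genes, 15 TFIID and SAGA genes, 13 RNA polymerase II subunit genes and 10 genes of general factors. The ChIP-seq material was whole embryos of both sexes, 0 to 24 h old, from 1 stable transgenic line that makes CG1602 with GFP at its C terminus. Chromatin was precipitated with an anti-GFP antibody in 3 biological replicates, so all cell types of the embryo are mixed and there is no second condition. The replicates share 1 control, which was not analysed here.

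Mediator is a large complex that bridges sequence-specific activators and RNA polymerase II, with head, middle and tail modules on a scaffold subunit and a detachable kinase module. TFIID, made of TBP and TBP-associated factors (TAFs), recognises the core promoter, and several TAFs are also subunits of the histone acetyltransferase complex SAGA. TFIIA and TFIIB stabilise promoter binding, TFIIF and TFIIE recruit the polymerase and TFIIH, and TFIIH opens the DNA and phosphorylates the polymerase. Most of these genes are active in all cell types.

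A filter on the irreproducible discovery rate (IDR), which weighs how well ranks agree between replicates, left 4599 peaks in the authors' dm6 list. This list was identical to the 4599 strongest of 16640 regions in the pooled list. Membership of a peak thus followed its pooled signal and does not show that its own ranks agreed. The lists of replicates 1, 2 and 3 held 17580, 27164 and 18386 regions, background included, and the sequencing depth is unknown here. A gene was called bound when an IDR summit lay within 500 bp of one of its transcription start sites (TSS). Ranks are by the authors' signal value within a list, 1 being strongest, and signal sizes were not compared between lists.

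Sequences at strong machinery peaks are shown for their base composition, which differed between genes. Each is RefSeq reference sequence of dm6, given 5′ to 3′ on the strand of the named gene, and capitals mark TTAAAA (a word described with the results), TATAAA (the TATA box core) and CAGCTG (an E-box) on either strand. The first 3 are the strongest peaks of the polymerase, of Mediator and a further Mediator head gene, each centred on the summit in intergenic DNA.
Polr2B, chr3R:14125661-14125781, plus strand: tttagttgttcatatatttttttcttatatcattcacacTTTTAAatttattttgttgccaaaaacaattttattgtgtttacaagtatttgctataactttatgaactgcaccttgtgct
MED27, chr3R:5654942-5655062, plus strand: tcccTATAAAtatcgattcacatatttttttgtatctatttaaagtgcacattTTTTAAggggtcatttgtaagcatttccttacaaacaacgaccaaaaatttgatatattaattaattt
MED17, chr3R:18188854-18188974, plus strand: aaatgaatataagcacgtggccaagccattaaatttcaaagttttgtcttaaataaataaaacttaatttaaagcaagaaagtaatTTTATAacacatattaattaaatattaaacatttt
Their GC contents are 24.0%, 24.8% and 19.8%. At Ssl1 and Taf2 the summit lay in the 5′ UTR of the gene on the other strand, so the stretch between both start sites is shown instead, which does not include the summit itself.
Ssl1 and Chro, chr3L:22878985-22879088, plus strand: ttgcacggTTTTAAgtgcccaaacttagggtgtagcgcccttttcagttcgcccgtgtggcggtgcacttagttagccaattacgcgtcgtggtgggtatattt
Taf2 and CalpB, chr3L:9888684-9888761, minus strand: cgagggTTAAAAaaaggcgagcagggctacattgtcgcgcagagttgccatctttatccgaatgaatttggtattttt
These stretches hold 51.0% and 43.6% GC, which is not the composition at the summits. Within 100 bp of the summit, GC content was 37.8% at Ssl1 and 34.8% at the stronger Taf2 peak. A weak peak of the largest polymerase subunit gene is set beside these sequences. The 121 bp centred on its summit hold more G and C than those of the first 3, at 52.1%.
Polr2A, chrX:11570494-11570614, minus strand: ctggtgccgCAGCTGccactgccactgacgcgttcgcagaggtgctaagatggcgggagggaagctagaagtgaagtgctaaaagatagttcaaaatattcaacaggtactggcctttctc

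Of the 67 machinery genes, 26 (38.8%) were bound, against 20.4% of the 13968 protein-coding genes (2853). RNA polymerase II genes were bound in 7 of 13 cases (53.8%), general factors in 5 of 10, Mediator genes in 10 of 29 (34.5%) and TFIID and SAGA genes in 4 of 15 (26.7%). A further 21 genes had only a weaker pooled region at the promoter and 20 had none. In all, 47 of 67 (70.1%) held a pooled region, against 40.7% of protein-coding genes. The groups hold every gene that the symbol rule gave, which is not every subunit of each complex. They were not tested against each other or against other genes. A peak between 2 genes counted for both. With assignment restricted to the closest TSS, 13 machinery genes were bound (19.4%), against 14.7% of protein-coding genes.

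**Figure D1:**
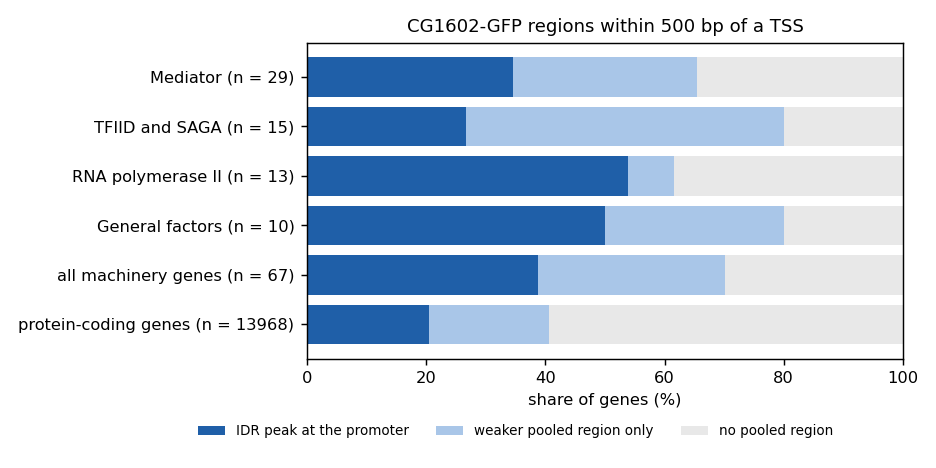
Share of genes (horizontal axis, %) with an IDR peak, with a weaker pooled region only, or with no pooled region whose summit lies within 500 bp of a TSS, for each complex, for all 67 machinery genes and for the 13968 protein-coding genes, which include them. The share with an IDR peak is 38.8% for the machinery genes and 20.4% for protein-coding genes, and most TFIID and SAGA genes lie in the weaker class.

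In each replicate alone the shares were similar. Among the 4599 strongest regions of its list, 27 machinery genes had a promoter summit in replicate 1 (40.3%), 24 in replicate 2 (35.8%) and 26 in replicate 3 (38.8%). The shares for protein-coding genes were 19.2%, 20.2% and 21.0% in replicates 1, 2 and 3. In all 3 replicates together, 22 machinery genes (32.8%) met this limit, against 15.6% of protein-coding genes.

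Bound Mediator genes were spread over the modules. The head had 4 bound genes of 9, the middle 3 of 9, the tail 2 of 6 and the kinase module 1 of 4, and the scaffold gene MED14 was not bound. The share of protein-coding genes is 20.4%, so with modules this small the counts do not set one apart from another. The strongest Mediator peak was at MED27 (FBgn0037359), which encodes a tail subunit. It ranked 163, 286 and 179 in replicates 1, 2 and 3, and its summit lay 137 bp upstream of the TSS (chr3R:5654872-5655176, IDR signal 694.9, IDR rank 190). MED17, the central head subunit, ranked 456, 274 and 190 in the replicates. MED30, another head subunit, ranked 551, 294 and 239. All 3 peaks thus ranked 551 or better in every replicate.

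The middle subunit genes came next in strength. MED7 ranked 800, 966 and 485 in replicates 1, 2 and 3. MED4 ranked 1220, 1332 and 915, and MED31, a small conserved subunit, 1381, 1480 and 996. All 3 held these places well above rank 4599 in every replicate. The MED7 summit lay 45 bp upstream of its TSS, the shortest upstream distance among the peaks described here. In the kinase module, which restrains or tunes Mediator activity, skd (MED13) ranked 1262, 2620 and 1303. The module's other genes differed: kto (MED12) and CycC had no pooled region and Cdk8 only a weak one.

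The remaining bound Mediator genes ranked lower. MED8, a head subunit gene, held a pair of overlapping IDR peaks of ranks 3227 and 4287. A single region matched both in each replicate, at ranks 3060, 3335 and 3744. MED16, a tail subunit gene, ranked 2164, 5729 and 3295 in replicates 1, 2 and 3. MED6, a head subunit gene with 5 annotated TSS, ranked 2759, 8052 and 3770. For both MED16 and MED6, replicate 2 placed the peak outside its 4599 strongest regions.

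TFIID and SAGA genes were bound in 4 of 15 cases (26.7%), near the 20.4% of protein-coding genes. Taf5 (FBgn0010356), a WD40-repeat scaffold subunit of TFIID, ranked 434, 491 and 463 in replicates 1, 2 and 3. Its summit lay 187 bp upstream of the TSS. Taf2, which helps TFIID contact the initiator, held overlapping IDR peaks of ranks 1111 and 2182, matched by 1 region in each replicate at ranks 1165, 1092 and 1262. Taf4, a scaffold subunit, ranked 1568, 1277 and 1032, and its summit lay in an intron of Taf4, 116 bp upstream of the nearest of its 3 TSS. Taf7, a partner and inhibitor of Taf1, was weakest at 4447, 2809 and 3189. All 4 genes stayed within the 4599 strongest regions of every replicate. Taf1, the largest subunit, had no pooled region, and the single region at its promoter was in replicate 2 at rank 23892. The paralogues Taf10 and Taf10b lie head to head and shared 1 pooled region of rank 13521, which was found at their promoters in replicate 3 but not in replicates 1 or 2.

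RNA polymerase II genes showed a mixed pattern. Polr2B (FBgn0262955), the second largest subunit that forms the catalytic centre with Polr2A, ranked 348, 266 and 245 in replicates 1, 2 and 3. Polr2H, a subunit shared by all nuclear RNA polymerases, ranked 206, 603 and 425. Polr2J ranked 548, 573 and 634, the narrowest spread of the strong polymerase peaks. Polr2F, also shared between polymerases, ranked 820, 970 and 1101. Its summit lay in annotated 3′ UTR of CG31542 and CG34277, 60 bp upstream of the Polr2F TSS, with no other TSS within 500 bp.

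The gene of the largest subunit had a weak peak. Polr2A ranked 3792, 4035 and 3206 in replicates 1, 2 and 3. Polr2I, a subunit involved in elongation and fidelity, ranked 4351, 3501 and 2490. Polr2C, an assembly platform subunit, ranked 4202, 7420 and 3081, so that replicate 2 placed it outside its 4599 strongest regions. Polr2E had only a weak pooled region of rank 6447. Polr2D, Polr2G, Polr2K, Polr2L and Polr2M had no pooled region, although replicate 2 alone had a region of rank 12767 at Polr2K.

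Among general factors, Ssl1 (FBgn0037202), a subunit of the TFIIH core, stood far above the rest. Its peak ranked 3, 6 and 4 in replicates 1, 2 and 3 (chr3L:22878706-22879111, IDR rank 3). The summit lay 192 bp upstream of the Ssl1 TSS and 87 bp downstream of the TSS of Chro, so it was nearer to Chro. TfIIA-L, the gene of the TFIIA precursor, ranked 805, 1054 and 984. Its summit lay in its own intron, 196 bp upstream of an internal TSS. With only the outermost TSS of each gene, TfIIA-L was not bound. TfIIA-S, the small TFIIA subunit, ranked 1344, 1363 and 1025. Both TFIIA genes were thus bound at similar ranks, while TfIIA-S-2, a second small-subunit gene, had no pooled region.

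TfIIB, which links TFIID-bound DNA to the polymerase, ranked 1457, 2472 and 1114 in replicates 1, 2 and 3. TfIIEbeta ranked 5249, 4999 and 3781 and was the weakest bound general factor. It lay within the 4599 strongest regions of replicate 3 but of neither other replicate. TfIIEalpha, the partner subunit, fell just outside the IDR list, with a pooled rank of 4918. TfIIFalpha and the elongation factor gene TfIIS had weaker regions (pooled ranks 9668 and 5904), and TfIIFbeta had none.

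**Figure D2:**
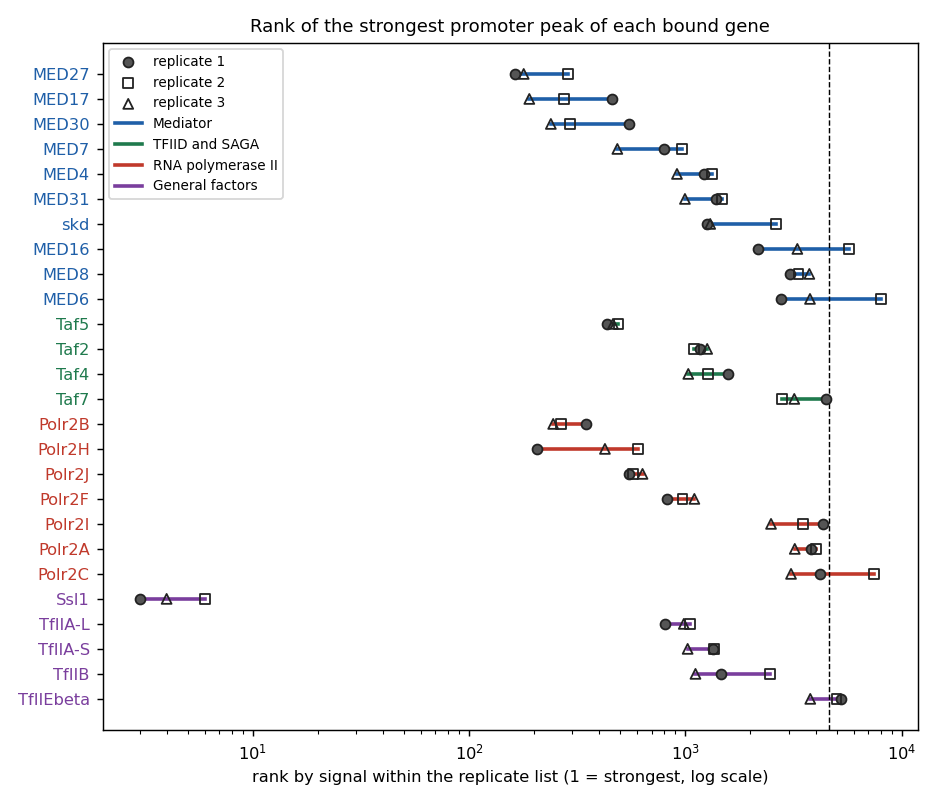
Rank by signal (horizontal log axis, 1 = strongest) of the strongest promoter peak of the 26 bound genes in the lists of replicates 1, 2 and 3, with a coloured line from lowest to highest rank and a dashed line at rank 4599. Ssl1 lies alone at ranks 3 to 6, and MED6, MED16, Polr2C and TfIIEbeta cross the dashed line.

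Strong machinery peaks ranked alike across replicates. The 28 IDR peaks at these genes had a median IDR rank of 1160, against 2026 for all 2278 promoter peaks of the list. Of them, 11 (39.3%) were in the top 1000, against 27.7% of all promoter peaks. The 18 peaks of IDR rank 1500 or better ranked 2620 or better in every replicate. Among the 10 others, ranks reached 8052. Within the 4599 strongest regions, 24 peaks were found in all 3 replicates, 3 in 2 and 1 in 1, where the paired peaks of Taf2 and of MED8 rest on the same replicate regions. Spearman's rho of the ranks over the 28 peaks between replicates 1 and 2 was 0.930, between 1 and 3 it was 0.903, and between 2 and 3 it was 0.929. Over all promoter peaks found in every replicate it was 0.825, 0.890 and 0.850 for the same pairs. The peaks were chosen by lists made from these replicates, which share a control, so rho describes the lists only.

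The IDR boundary separated genes with nearly equal signal. TfIIEbeta was the weakest gene inside it (signal 116.5, rank 4180), and Taf13, a histone-fold TAF, the strongest outside (signal 104.0, pooled rank 4826). Taf13 ranked 4356, 8960 and 4947 in replicates 1, 2 and 3. Its histone-fold partner Taf11 ranked 4862, 4269 and 5012 and had a pooled rank of 5230. Both members of this TFIID pair thus sat at the edge of the list. MED24, a tail subunit gene (pooled rank 5206), ranked 13816, 4301 and 4817, and MED19 (pooled rank 5545) ranked 3831, 8947 and 6860. These 4 genes were the only ones of the 21 with a weaker region that reached the 4599 strongest regions of a replicate.

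Of the 21 genes with a weaker region, 11 had a promoter region in all 3 replicate lists, 6 in 2 and 4 in 1, and their pooled ranks ran from 4826 to 16607 with a median of 9247. Beside those named, they were MED1, MED10, MED21, MED23, MED25, MED26, Taf6, Taf8, Taf9 and Taf12. No pooled region was found at the head genes MED11, MED18, MED20, MED22 and MED28, the middle gene MED9, the tail gene MED15, or Taf3 and Taf12L, nor at MED14, kto, CycC, Taf1, TfIIA-S-2, TfIIFbeta and the 5 polymerase genes named above. Of the 20, a total of 14 had no promoter region in any replicate list. The MED15 promoter was a near miss. Its nearest IDR summit, of rank 427, lay 520 bp from the TSS, just beyond the window. TfIIS and MED20 followed at 838 and 969 bp, and the other unbound genes had none within 1000 bp.

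Most bound machinery genes shared their peak with a neighbour. The strongest peak of 22 of 26 genes (84.6%) also lay within 500 bp of the TSS of another gene, against 64.0% of 2853 bound protein-coding genes. In 21 cases a coding neighbour ran in the opposite direction, and at MED4 the neighbour was the antisense RNA gene asRNA:CR43470. The TSS of the machinery gene was the nearest to the summit in 13 of 26 cases. For comparison, 2052 of the 2853 bound protein-coding genes stayed bound when only the closest TSS counted. For opposite coding neighbours, the count over all bound genes is not given here.

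Neighbours came from varied pathways. Taf5 was paired with the peroxisome biogenesis gene Pex6 (summit 187 bp from Taf5 and 114 bp from Pex6). Polr2I was paired with su(Hw), the gene of an insulator protein (258 and 242 bp). MED30 was paired with the translesion polymerase gene Rev1 (203 and 71 bp), and MED7 with the condensin II gene Cap-H2 (45 and 233 bp). Polr2C was paired with PolG2, a mitochondrial DNA polymerase subunit gene, and with GatC (178 bp from Polr2C and 54 bp from each neighbour). TfIIA-L was paired with pll, which encodes the kinase Pelle (196 and 52 bp). TfIIB was paired with Bug22 (332 and 88 bp), Polr2B with 140up (70 and 173 bp), and MED27 with elm (137 and 141 bp). At Polr2J (113 bp, and 122 bp from CG15141) and Taf7 (130 bp, and 145 bp from EMC1) the summit was nearly midway, as at MED27 and Polr2I. The Taf7 distance is from an internal TSS, and that summit lay in a Taf7 intron. MED17 was paired with CG12321 (158 and 207 bp), MED8 with CG8929 (125 and 339 bp), MED16 with CG11170 (74 and 185 bp), MED6 with Naa80 (17 and 36 bp), Polr2H with CG11247 (130 and 4 bp) and Polr2A with CG11699 (228 and 67 bp). MED31 had CG9775 on the other strand (178 and 53 bp) and slx1 on its own strand. No IDR peak was shared between 2 machinery genes.

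Summits lay upstream. Of the 28 peaks, 27 (96.4%) had their summit upstream of the nearest TSS of the machinery gene. The median was -148 bp, with quartiles of -198 and -105 bp. Over all 3157 pairs of an IDR promoter peak and a protein-coding gene, 90.2% were upstream with a median of -146 bp. MED6 was the exception, with its summit 17 bp downstream of a TSS in its own 5′ UTR. At Taf4, Taf7 and TfIIA-L the summit lay in an intron of the gene itself, so downstream of another of its start sites. The farthest summit, at skd, lay 420 bp upstream, and 61 bp upstream of Pdss2 on the other strand. By annotation, 16 summits were intergenic, 5 in a 5′ UTR, 4 in introns, 2 in non-coding exons and 1 in a 3′ UTR.

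**Figure D3:**
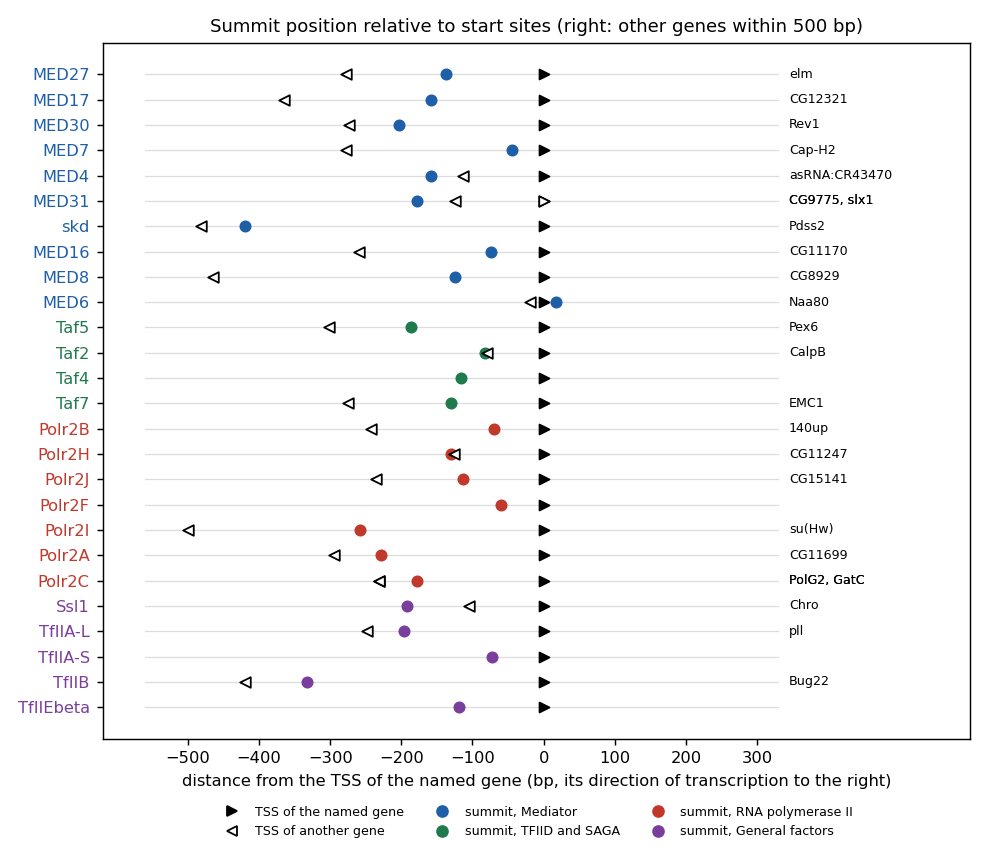
Position of the strongest IDR summit (filled circles) relative to the TSS of each bound gene (filled arrowheads at 0) and to the TSS of other genes within 500 bp (open arrowheads, named at right), in bp with the named gene transcribed to the right. At most genes the summit lies between the start sites of a divergent pair, and only at MED6 does it lie downstream of the gene's own TSS.

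Promoter arrangement differed between machinery genes and other genes. A promoter was called divergent if a gene on the other strand started within 1000 bp upstream, and this held for 48 of 67 machinery genes (71.6%), against 39.3% of protein-coding genes. Among divergent genes, 23 of 48 in the machinery set were bound (47.9%), against 36.1% of protein-coding genes. Among the others, 3 of 19 (15.8%) and 10.3% were bound, and the 3 were Polr2F, TfIIA-S and TfIIEbeta. All bound Mediator genes (10 of 22 divergent, 0 of 7 other) and TFIID and SAGA genes (4 of 12 and 0 of 3) thus had a divergent promoter. With so few other promoters, counts of 0 are near the 10.3% of protein-coding genes. The Taf4 peak itself had no TSS of another gene within 500 bp. How far this arrangement accounts for the share of bound machinery genes was not tested. The share of bound genes was also higher with 2 or more start sites, which give a gene more windows in which a summit counts. Of genes with 1 TSS, 20 of 58 in the machinery set were bound (34.5%), against 16.0% of protein-coding genes, and with 2 or more TSS, 6 of 9 (66.7%) and 32.6%.

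**Figure D4:**
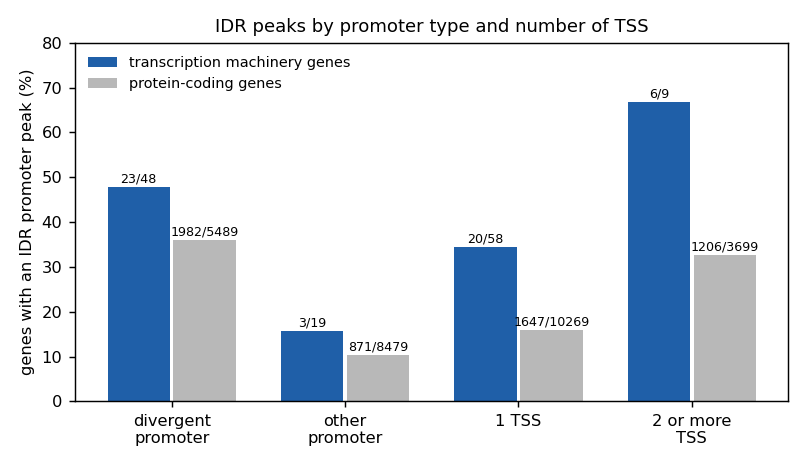
Share of genes (vertical axis, %) with an IDR promoter peak among the 67 transcription machinery genes and the 13968 protein-coding genes, split by divergent promoter and by number of TSS, with bound over all genes printed above each bar. Machinery genes lie above protein-coding genes in each class, and divergent promoters lie above others in both sets.

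The summits were rich in A and T. Within 100 bp of the summit the median GC content was 34.6% (range 22.9 to 50.7%), against 46.5% for windows 1000 bp to either side. The summit window had the lower value at 26 of 28 peaks (92.9%), near the 87.1% of all promoter peaks. The medians over all promoter peaks were 33.3% and 44.8%. The word TTAAAA, chosen after seeing words at all IDR summits, was present on either strand at 22 of 28 machinery summits (78.6%), in 16.1% of the windows beside them, at 57.2% of all promoter summits and in 33.0% of windows of equal length centred on coding TSS. It consists of A and T only, and its part in binding was not tested.

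Within 100 bp of the summit, the words searched were rare or near their share at all promoter summits. TATAAA, the core of the TATA box, was found within 100 bp of 11 of 28 summits (39.3%), against 40.7% of all promoter summits and 29.2% of coding TSS windows. The E-box CAGCTG was found at 3 (10.7%, against 9.96% and 13.8%), at MED30, Taf5 and Polr2A. TATCGATA, the element bound by DREF, was found at 1 (3.57%, against 6.19% and 7.83%), the MED8 summit. GGTCACAC, from the motif of M1BP, was found at none (against 3.20% and 6.74%), and neither were GAGAGAG (3.42% and 3.68%) or CACTGAGA (1.89% and 0.694%). Both strands were searched, and a TATAAA match can overlap a TTAAAA match. With 28 windows, differences of a few percent cannot be seen.

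Related transcription genes outside this set were counted in the same way, beside the 20.4% of protein-coding genes, and were not tested. Pausing and elongation factors were bound in 8 of 11 cases, led by TH1, a subunit of the pausing factor NELF (IDR rank 440), and Nelf-E (1143). The remaining TFIIH genes were bound in 5 of 9 cases, with the helicase gene Xpd at rank 1610 and mrn at 1960. RNA polymerase I subunits were bound in 1 of 7 cases (Polr1D, rank 2860). None of 3 TBP family genes (Tbp, Trf and Trf2) and none of 4 testis TAF genes (nht, can, mia and sa) was bound. With so few genes, counts of 0 or 1 are near the protein-coding share, and 1 TBP family gene and 1 testis TAF gene had a pooled region.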

How the data were processed

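Per the labels, sonicated chromatin (labelled size range 200 to 800) of the 3 replicates was precipitated with an anti-GFP antibody. The authors deposited peak regions with a signal value whose scale is not given, called with a shared control. Which aligner, caller and threshold were used is not given in the sources used here. Per the file headers, each replicate list came from 1 replicate and the control, the pooled list from all 3, and the IDR list from these lists. The 5 dm3 lists were not used.

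Summits in dm6 (region start plus the deposited offset) were assigned to Ensembl release 115 TSS, without pseudogenes and transposable elements. Replicate ranks were those of the strongest region sharing at least 1 bp with the IDR peak. Words were searched within 100 bp of summits. No test was run, since there is 1 group. Mediator modules follow structures of the complex in other species. Members and lists were chosen with earlier results of these data known. Genes were named by a rule: all bound members with their neighbours, the 3 strongest with a pooled region only, those reaching the strongest 4599 of a replicate, and members with no pooled region. Others named were chosen after their values were seen. In the related lists, symbols were matched without regard to case, and 3 names were not found. RNA polymerase III subunits are not reported here. Assignment was tested on simulated data. Software was matplotlib 3.10.9, scipy 1.17.1, pandas 2.3.3 and numpy 2.4.6 under Python 3.11.15.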

Additional observations from a re-analysis of the deposited data

How the results depend on the processing

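Counts of bound genes depended most on how a peak between start sites is assigned. When only the closest TSS received a peak, IDR-bound genes numbered 13 in all, 6 in Mediator, 2 in TFIID and SAGA, 3 in RNA polymerase II and 2 among general factors. The count with a pooled region was then 29, and that bound in all 3 replicates 8. This rule lowered the IDR-bound share of machinery genes from 38.8% to 19.4%, and that of protein-coding genes from 20.4% to 14.7%. The 2 shares thus lay much closer together than with a peak counted for both genes. For the pooled and all-replicate counts that share is not given here, so these counts cannot be set against it. In the stronger 2299 IDR peaks, RNA polymerase II kept 4 bound genes, MED16, MED6, MED8, Taf7 and TfIIEbeta also dropped out, and 18 genes remained (26.9%, against 12.2% of protein-coding genes). All other counts of IDR-bound genes by complex stayed within 1.5 times under windows of 250 or 1000 bp, the outermost TSS, any part of the peak in the window, peaks held by all 3 replicates, and leaving out a replicate. Upstream summits and shared peaks did so in the stronger peaks, those held by all 3 replicates and without a replicate, and shared peaks also under both windows; other settings were not run for them. Without replicate 1, 2 or 3, bound genes numbered 22 to 25 (32.8% to 37.3%, against 16.2% to 17.6% of protein-coding genes). Genes bound in the remaining replicates numbered 22 to 25, and the share of protein-coding genes for this count is not given here. Word counts at 28 summits moved with the window: TATAAA was at 6 within 50 bp, and TATCGATA at 6 within 200 bp. Shares over other promoters at these windows are not given here, so these counts cannot be called high or low. No paired analysis was possible because there is 1 group. Depth is unknown, so a promoter without a region is not shown to be unbound.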
